A study of Astyanax mexicanus with 12 samples.

Results

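The 27 miRNAs described here are those of *Astyanax mexicanus* embryos whose level set Molino and 1 other cave morph together against the remaining cave morph and the surface fish. They were chosen by their measured levels. For each morph the level was the mean CPM (the count scaled to a library total of 1000000 counts) of its 3 libraries, taken as log2(mean CPM + 0.5). The 4 levels of each miRNA were put in order, and the largest difference between neighbours in that order is called its step. A miRNA was taken when its mean count over the 12 libraries was 10 or more, its step was 0.7 or more, and the step parted Molino and Pachón from Tinaja and surface fish, or Molino and Tinaja from Pachón and surface fish, in either direction. Of the 683 miRNAs counted, 503 had a mean count of 10 or more and 247 of those had a step of 0.7 or more. Molino stood with Pachón in 13 of the 247 and with Tinaja in 14.

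Small RNA from whole WT embryos at 24 hpf was sequenced in 12 libraries, 3 each of the cave morphs Molino, Tinaja, and Pachón and of the river-dwelling surface fish, and none of the groups carried an introduced allele or received a treatment. Many embryos of each morph were collected, and how they were divided among the 3 libraries of a morph is not stated, so no source says that the libraries are separate clutches, the spread between them may be technical, and the p-values measure only that spread. The libraries held 5539157 to 15279059 counts. The floor, taken as 3 counts in a library, equalled 0.196 to 0.542 CPM. Such limits and the intervals given with count ratios cover counting error only. The count ratios pool the libraries of 2 morphs as 1 rate, over levels that the choice used, so their intervals are a description and test nothing. Pooling weights the libraries by depth, so these ratios differ from the folds of mean CPM given elsewhere. Tinaja 3 stood apart from the other libraries of its morph, with a chi-square per degree of freedom of 436 against Tinaja 1 and 641 against Tinaja 2, while Tinaja 1 and Tinaja 2 differed from each other by 47.6. By the same measure surface 3 was at 106 from surface 1 and 88.5 from surface 2, which differed by 13.1. Molino 1 and Molino 2 differed by 208.

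A miRNA is a short RNA that is carried by the silencing complex and pairs with messenger RNAs, mainly through the seed near its 5′ end, which lowers their translation and stability. Eyes, pigment, and metabolism are among the traits that differ between cave and surface populations, and the eye has begun to form at the stage sampled. The miRNAs carry the running numbers of the study's own list, each with the prefix astmex- that is left off here. A number is therefore no sign of kinship with a miRNA of the same number in another species, and no role is given for any of them. Mature sequences and genomic positions were not analysed here, so reads shared by similar miRNAs cannot be traced. In whole embryos, fewer cells of a type that carries a miRNA and fewer molecules per cell cannot be told apart.

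The 247 miRNAs with a step fell into 7 patterns. A single morph stood apart in most of them, Molino in 83, Tinaja in 40, Pachón in 30, and surface fish in 37. The 4 morphs were parted 2 against 2 in the others. Molino stood with surface fish, and so Pachón with Tinaja, in 30, which is more than in either pattern that put Molino with a cave. Because a step parts the morphs without naming a side, each of the 13 Molino and Pachón miRNAs may equally be read as one that Tinaja shared with surface fish, and each of the 14 Molino and Tinaja miRNAs as one that Pachón shared with surface fish. The median step was 1.44 for the Molino and Pachón miRNAs, 1.17 for the Molino and Tinaja miRNAs, and 1.92 for the miRNAs in which Molino stood with surface fish.

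**Figure D1:**
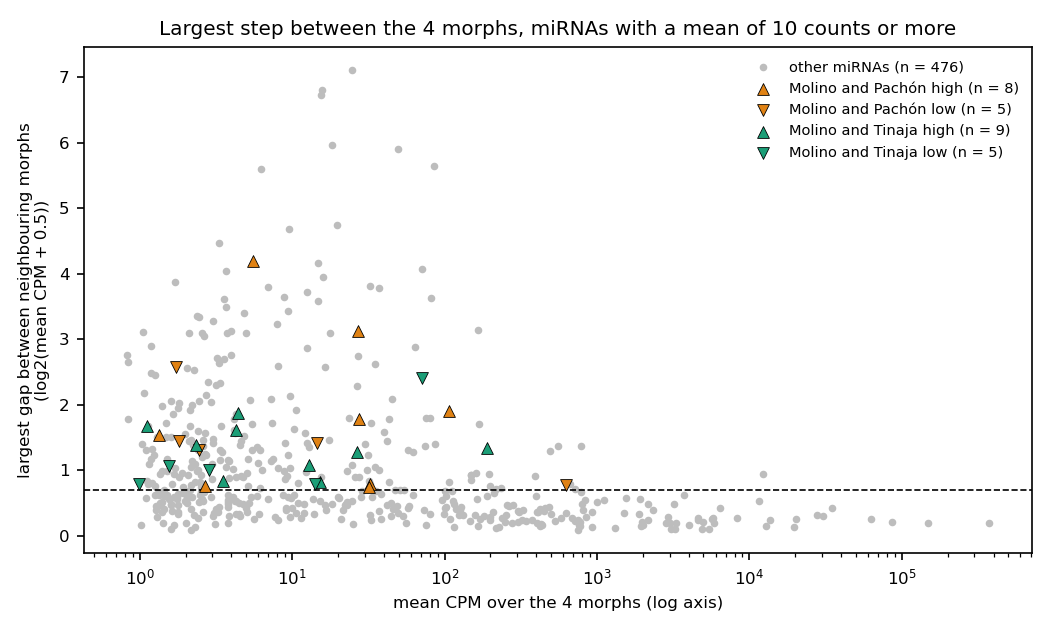
Step of each of the 503 miRNAs with a mean count of 10 or more against its mean CPM over the 4 morphs on a log axis, with triangles for the 27 miRNAs described here, pointing up where the Molino pair was high and down where it was low, and a dashed line at the step of 0.7 that the choice required. Among the 27, 4 steps are 2 or more, up to 4.19, and 8 are under 1.

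The median level of these miRNAs was higher with Pachón than with Tinaja, a difference that was not tested. Over all 27 the median mean count was 55.9, against 95.7 for the 503 miRNAs. It was 134 for the 13 with Pachón and 42.4 for the 14 with Tinaja, with overlapping ranges of 12.7 to 5949 and 10.1 to 1900. In each of the other patterns the median was also under 95.7, so a low level was not particular to the 27. Of the 27, 13 lay under 50 while the highest, miR-191, was at 5949. Together the 27 took 0.0892% to 0.174% of the counts of a library. Of that, miR-191 alone gave 36.1% to 66.2%. Their libraries also scattered more within a morph, with a median pooled SD of 0.289 on the log2 scale, against 0.217 for the 503. The step was larger than 2 such SDs in 26 of the 27. Since the choice required a large step and the share over the 503 is not given, nothing is read from this count.

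The Molino pair was high in 17 of the miRNAs, 8 with Pachón and 9 with Tinaja, and low in 10, 5 with each. All 6 libraries of the pair lay on 1 side of the other 6 in 13 of 13 Molino and Pachón miRNAs, where 14.1% of the 503 miRNAs were parted in that way. The same held for 12 of 14 Molino and Tinaja miRNAs, where 7.55% of the 503 were. Since the choice used these levels, the counts describe the choice. The 2 whose libraries overlapped were miR-280 and miR-499.

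**Figure D2:**
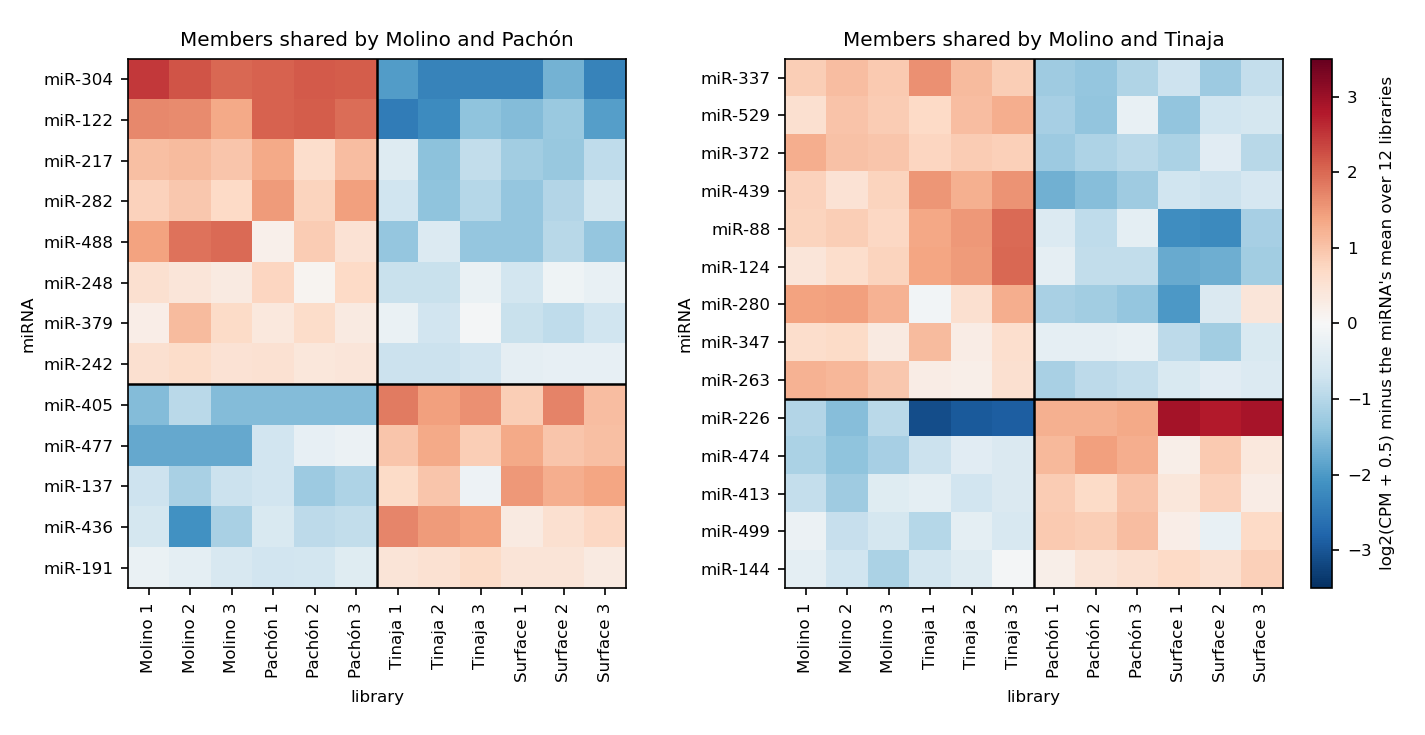
Level of the 27 miRNAs in each of the 12 libraries, as log2(CPM + 0.5) minus the mean over the 12 libraries of that miRNA, red above and blue below that mean, with the Molino pair left of the vertical line and the miRNAs it held high above the horizontal line. The 3 libraries of a morph share a colour in most rows, while the surface libraries differ most in miR-280, from 1.99 to 12.8 CPM.

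Of the 8 miRNAs high in Molino and Pachón, miR-304 and miR-122 had the largest steps, at 4.19 and 3.12. Where the low morphs lay near 0, the size of the step depended on the added 0.5 CPM. With 0.1 CPM added the steps were 5.72 for miR-304 and 3.23 for miR-122. With 2 CPM added they were 2.57 and 2.78, so that miR-122 had the larger. miR-304 had 13.7, 11.2, and 9.67 CPM in Molino and 10.1, 10.9, and 10.5 CPM in Pachón, against 0.162, 0, and 0 CPM in Tinaja and 0, 0.305, and 0 CPM in surface fish. It was thus close to absent outside the pair, with 667 counts over the 6 libraries of Molino and Pachón, against 4 over those of Tinaja and surface fish. The ratio of the pooled CPM was 150 (95% exact interval 58.5 to 554). The Molino and Pachón libraries overlapped.

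miR-122 was at 45.7, 44.2, and 35.3 CPM in Molino and 59.3, 62.0, and 55.3 CPM in Pachón, against 2.10, 2.59, and 4.89 CPM in Tinaja and 4.45, 5.33, and 3.25 CPM in surface fish. Unlike miR-304 it was counted in every library, and the pair averaged 13.3 times the level of the other morphs. Every Pachón library was above every Molino library. Tinaja 3 was the highest of the Tinaja libraries, and Tinaja and surface fish overlapped.

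The next in order were miR-217 and miR-282, each about 4 times as high in the pair. miR-217 had 175, 181, and 165 CPM in Molino and 210.45, 129, and 176 CPM in Pachón, against 60.8, 30.5, and 45.3 CPM in Tinaja and 35.8, 33.1, and 44.6 CPM in surface fish, a fold of 4.14. It was the most abundant of these 8, and Pachón spread around the narrow range of Molino. miR-282 had 37.1, 40.7, and 34.7 CPM in Molino and 59.7, 36.7, and 57.4 CPM in Pachón, against 12.9, 7.56, and 10.3 CPM in Tinaja and 7.96, 10.1, and 13.5 CPM in surface fish, a fold of 4.27. In both miRNAs Pachón 2 was the lowest Pachón library, below the Molino range for miR-217 and within it for miR-282, and the Tinaja and surface libraries overlapped.

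The fifth of this class, miR-488, was the rarest. It had 2.86, 4.24, and 4.47 CPM in Molino and 0.922, 1.83, and 1.30 CPM in Pachón, against 0, 0.409, and 0 CPM in Tinaja and 0, 0.152, and 0 CPM in surface fish. Every Molino library was above every Pachón library, and the Pachón libraries held only 11 to 28 counts. Tinaja and surface fish had 7 counts in all, 6 of them in Tinaja 2, and the pooled ratio was 18.7 (95% exact interval 8.84 to 47.3). The fold of mean CPM was 27.8. Its step of 1.54 became 2.62 with 0.1 CPM added and 0.65, under the limit, with 2 CPM added.

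The other 3 had small steps, and 2 of them were the closest to the limit of all 27. miR-242 had 44.1, 46.7, and 43.1 CPM in Molino and 43.3, 39.4, and 40.3 CPM in Pachón, against 17.7, 17.7, and 18.8 CPM in Tinaja and 24.0, 24.5, and 24.6 CPM in surface fish, a step of 0.74. Its step was small and its libraries were the tightest of all 27, with a pooled SD of 0.053 on the log2 scale, so that no morph overlapped another except Molino and Pachón. miR-379 had 2.86, 5.74, and 4.11 CPM in Molino and 3.19, 3.99, and 3.09 CPM in Pachón, against 1.94, 1.29, and 2.25 CPM in Tinaja and 1.17, 1.07, and 1.26 CPM in surface fish, a step of 0.75. Molino spread over the whole range of Pachón, and the gap between the pair and Tinaja was narrow. miR-248, with a step of 0.78, ranged over 38.2 to 45.4 CPM in Molino and 32.8 to 51.2 CPM in Pachón, against 17.4 to 25.9 CPM in Tinaja and 19.3 to 27.1 CPM in surface fish.

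Just under the limit stood miR-377, with a step of 0.69 that put Molino with Tinaja, and miR-254, with a step of 0.68 that put Molino with Pachón. miR-377 had 1.95, 2.496, and 3.02 CPM in Molino and 3.32, 2.18, and 4.76 CPM in Tinaja, against 1.09, 1.18, and 1.79 CPM in Pachón and 1.87, 0.61, and 1.26 CPM in surface fish. miR-254 had 40.7, 46.2, and 35.0 CPM in Molino and 36.0, 29.9, and 35.9 CPM in Pachón, against 19.1, 17.8, and 26.2 CPM in Tinaja and 19.1, 20.1, and 17.3 CPM in surface fish. In both, the libraries of the pair lay above those of the other morphs, as they did just inside the limit, and neither is counted among the 27.

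Among the 5 miRNAs low in Molino and Pachón, 2 were nearly absent from 1 or both of these caves. miR-405 had 0, 0.25, and 0 CPM in Molino and none in any Pachón library, against 4.53, 3.34, and 3.83 CPM in Tinaja and 2.11, 4.27, and 2.53 CPM in surface fish. The 6 libraries of the pair held 2 counts, both in Molino 2. Set against the floor of 3 counts per library, miR-405 was at least 15.7-fold lower in Pachón than in Tinaja and at least 11.9-fold lower than in surface fish. Pooled over the pair, its CPM was 107 times lower than over Tinaja and surface fish (95% exact interval 29.4 to 894), where the fold of mean CPM was 82.6.

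miR-477 was uneven within the pair, absent from the Molino libraries and present in Pachón. It had no count in any Molino library and 0.587, 0.916, and 0.996 CPM in Pachón, against 2.91, 3.82, and 2.64 CPM in Tinaja and 3.87, 2.90, and 3.07 CPM in surface fish. Its levels therefore stood at 3 heights rather than 2, and the 31 counts in Pachón were few. On the log2 scale Molino was at -1, set by the added 0.5 CPM alone, and Pachón at 0.41. Without Pachón 1, Tinaja 2, or surface 1, miR-477 did not meet the conditions. Nor did it with 0.1 CPM added in place of 0.5, or with the median of the libraries in place of the mean. Against the same floor Molino was at least 8.31-fold lower than Tinaja, at least 8.72-fold lower than surface fish, and at least 2.22-fold lower than Pachón.

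miR-137 and miR-436 differed in which of the other morphs was higher. miR-137 had 6.64, 4.87, and 6.53 CPM in Molino and 6.88, 4.32, and 5.08 CPM in Pachón, against 18.3, 22.6, and 9.78 CPM in Tinaja and 32.9, 27.7, and 30.0 CPM in surface fish. Tinaja lay between the pair and surface fish without touching either, and Tinaja 3, the library that stood apart, was the one closest to the pair. miR-436 had 0.911, 0, and 0.483 CPM in Molino and 1.01, 0.654, and 0.698 CPM in Pachón, against 6.63, 5.59, and 5.29 CPM in Tinaja and 2.23, 2.74, and 3.07 CPM in surface fish. Here Tinaja was above surface fish in every library, so that Tinaja and the pair lay on opposite sides of surface fish.

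miR-191, the most abundant of the 27, had 502, 469.8, and 402 CPM in Molino and 374, 381, and 439 CPM in Pachón, against 803, 853, and 934 CPM in Tinaja and 804, 808, and 737 CPM in surface fish. It had the smallest fold of all 27, 1.92, with more counts in every library than any other of the 27. Molino overlapped Pachón and Tinaja overlapped surface fish, while the lowest library of the high morphs, surface 3, was well above Molino 1.

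**Figure D3:**
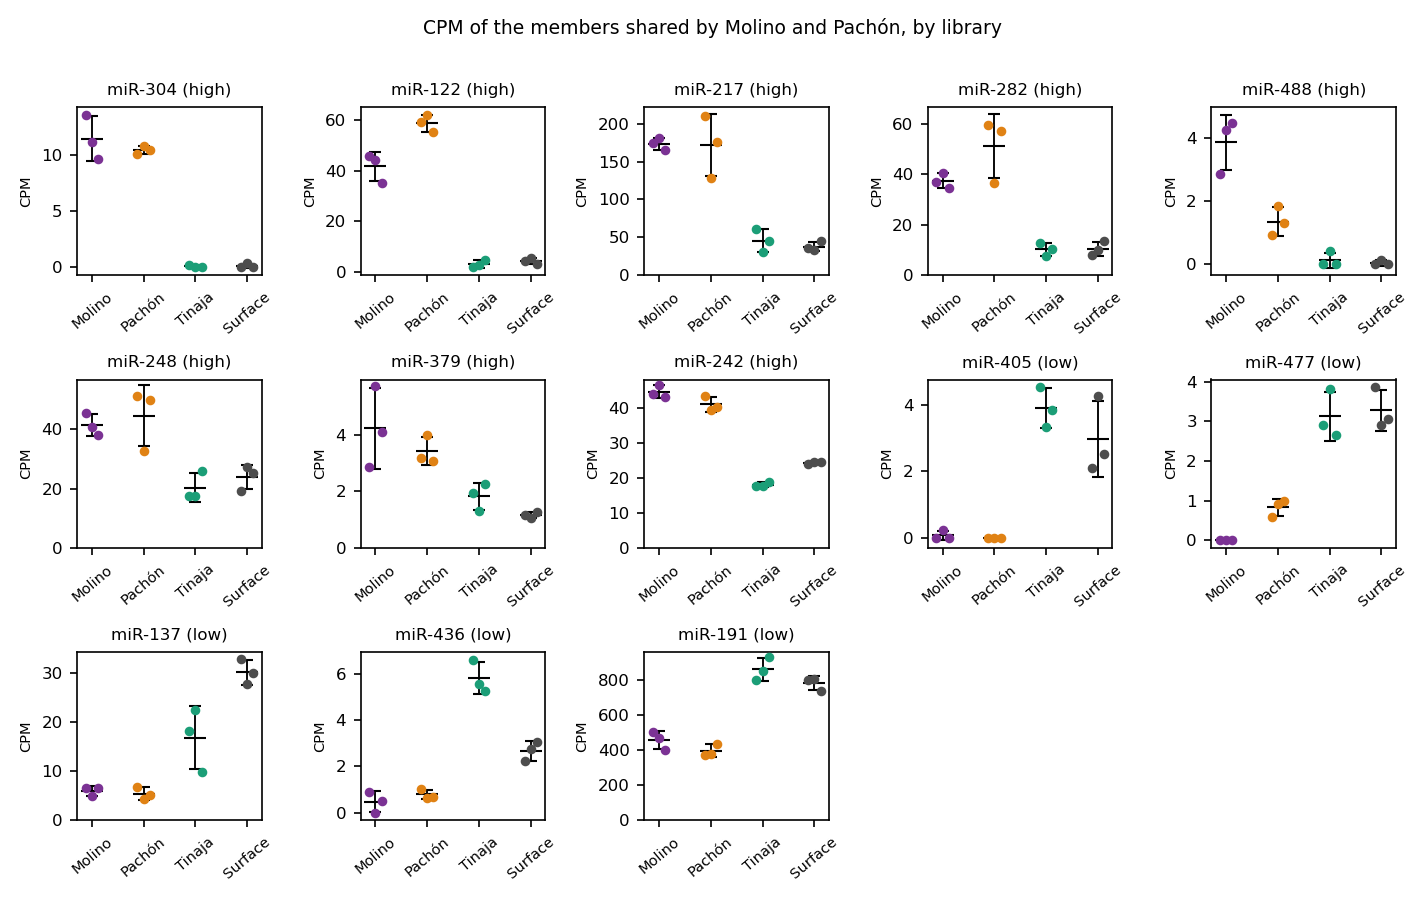
CPM of the 13 Molino and Pachón miRNAs in each library, 1 panel for each miRNA with its own scale, points for libraries and bars for the mean ± SD of 3 libraries, and high or low for the Molino pair. In miR-304 and miR-405 the low morphs lie at or near 0, while in miR-477 Pachón lies between Molino at 0 and the other morphs at 2.64 to 3.87 CPM.

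The 9 miRNAs high in Molino and Tinaja had steps of 0.82 to 1.88, and the 4 with the largest steps were under 10 CPM in every Molino library. miR-337 had 6.38, 7.36, and 6.65 CPM in Molino and 10.9, 7.63, and 6.34 CPM in Tinaja, against 1.09, 0.982, and 1.30 CPM in Pachón and 1.76, 1.07, and 1.62 CPM in surface fish, a fold of 5.79. Molino and Tinaja overlapped, as did Pachón and surface fish. miR-372 had 8.85, 7.36, and 7.01 CPM in Molino and 5.99, 6.61, and 6.34 CPM in Tinaja, against 1.09, 1.31, and 1.49 CPM in Pachón and 1.29, 2.44, and 1.44 CPM in surface fish, a fold of 4.65. In this miRNA every Molino library was above every Tinaja library, and surface 2 was the highest library of the low morphs.

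miR-529 was among the rarest of the 27. It had 1.43, 2.12, and 1.93 CPM in Molino and 1.62, 2.25, and 2.64 CPM in Tinaja, against 0.0838, 0, and 0.598 CPM in Pachón and 0, 0.305, and 0.361 CPM in surface fish. The low morphs held 11 counts in all, 6 of them in Pachón 3, and the pooled ratio was 10.5 (95% exact interval 5.66 to 21.6). miR-439 had 3.25, 2.496, and 3.14 CPM in Molino and 5.66, 4.57, and 5.82 CPM in Tinaja, against 0.168, 0.262, and 0.399 CPM in Pachón and 0.82, 0.762, and 0.903 CPM in surface fish. No morph overlapped another in miR-439, and the order ran from Tinaja over Molino and surface fish down to Pachón. The lower end of that order was thin, with 17 counts in all in surface fish and 10 in Pachón.

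miR-88 was the most abundant of the 14, with a mean count of 1900.1. It had 223, 235, and 215 CPM in Molino and 335, 370.2, and 516 CPM in Tinaja, against 93.4, 69.9, and 103 CPM in Pachón and 28.3, 27.1, and 58.0 CPM in surface fish. Again no morph overlapped another, with Tinaja highest and surface fish lowest. On the log2 scale the levels were 8.67 in Tinaja, 7.81 in Molino, 6.48 in Pachón, and 5.26 in surface fish. miR-88 did not meet the conditions without Pachón 2, without surface 3, or with the median of the libraries in place of the mean. Tinaja 3 was 1.47 times the mean of the other Tinaja libraries and surface 3 was 2.09 times the mean of the other surface libraries.

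Tinaja 3 was the highest Tinaja library in 13 of the 27 and surface 3 the highest surface library in 13. Both held in 8, which were miR-88, miR-124, miR-280, miR-439, miR-529, miR-144, miR-379, and miR-242. How often these libraries were the highest among miRNAs outside the 27 was not counted, so nothing particular to the 27 is read from these counts. miR-124 ranged over 25.2 to 32.3 CPM in Molino and 49.0 to 76.5 CPM in Tinaja, against 9.95 to 14.9 CPM in Pachón and 5.15 to 7.76 CPM in surface fish. Its order of morphs was that of miR-88, and no morph overlapped another. miR-280 ranged over 22.8 to 26.3 CPM in Molino and 8.90 to 23.7 CPM in Tinaja, against 3.39 to 4.02 CPM in Pachón and 1.99 to 12.8 CPM in surface fish. The highest surface library was above the lowest Tinaja library, and the spread within morphs was the largest of the 27, with a pooled SD of 0.70 on the log2 scale. In miR-124, Tinaja 3 and surface 3 were 1.49 and 1.48 times the mean of the other libraries of their morph, and in miR-280 they were 2.06 and 3.0 times. These libraries were the shallowest of their morphs, at 7565642 and 5539157 counts, and the part of this in their values was not tested. Without Tinaja 3 the difference of miR-280 between Tinaja and surface fish was 0.66, and a larger step lay between Molino and Tinaja. Over all omissions of 1 library the difference between Tinaja and surface fish was 0.66 to 1.75. miR-280 did not meet the conditions without Tinaja 3 or without surface 1.

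The remaining high miRNAs, miR-347 and miR-263, had steps of 0.84 and 0.82. miR-347 ranged over 3.99 to 5.24 CPM in Molino and 3.82 to 7.28 CPM in Tinaja, against 2.42 to 2.49 CPM in Pachón and 1.07 to 1.99 CPM in surface fish. miR-263 ranged over 25.4 to 30.7 CPM in Molino and 14.99 to 19.3 CPM in Tinaja, against 5.70 to 7.07 CPM in Pachón and 8.78 to 9.76 CPM in surface fish. Its morphs did not overlap at all, with Molino highest and Pachón lowest, so that the step between Tinaja and surface fish was not far larger than that between Molino and Tinaja. Without Tinaja 3 the difference of miR-263 between Tinaja and surface fish was 0.70, and a larger step lay between Molino and Tinaja. Nor did miR-263 meet the conditions without Molino 3 or with TMM scaling factors. It was lost as well with the median of the libraries and with counts thinned to the shallowest library.

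Among the 5 miRNAs low in Molino and Tinaja, miR-226 stood apart by level and by step. It had 13.4, 9.61, and 14.0 CPM in Molino and 2.75, 3.13, and 3.30 CPM in Tinaja, against 66.5, 66.2, and 70.5 CPM in Pachón and 212, 192, and 207 CPM in surface fish. All 3 caves were thus below surface fish, at 4 heights with no overlap, and the step of 2.41 between Pachón and Molino was the largest in a ladder. The pair averaged 17.6 times lower than the other morphs.

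Of the other 4, 3 were rare. miR-474 had 0.26, 0.125, and 0.242 CPM in Molino and 0.485, 0.75, and 0.661 CPM in Tinaja, against 3.10, 3.99, and 3.49 CPM in Pachón and 1.41, 2.59, and 1.62 CPM in surface fish. The Molino values stood for 5 counts in all, under the floor of 3 in each library. miR-413 had 1.17, 0.749, and 1.69 CPM in Molino and 1.86, 1.36, and 1.59 CPM in Tinaja, against 5.03, 4.19, and 5.38 CPM in Pachón and 3.40, 4.73, and 3.07 CPM in surface fish. Molino and Tinaja overlapped, Pachón and surface fish overlapped, and the pair was 3.06 times lower.

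miR-499 had the lowest mean count of the 27, 10.1. It had 0.651, 0.25, and 0.363 CPM in Molino and 0.162, 0.545, and 0.397 CPM in Tinaja, against 2.01, 1.90, and 2.29 CPM in Pachón and 1.05, 0.61, and 1.62 CPM in surface fish. Pachón was clear of every other morph, while surface 2 fell below Molino 1. miR-144 had 10.2, 7.86, and 5.80 CPM in Molino and 8.17, 9.27, and 12.3 CPM in Tinaja, against 15.1, 17.9, and 19.4 CPM in Pachón and 21.3, 19.2, and 23.3 CPM in surface fish. It had the smallest fold of the 14, 2.17, and its pairs did not overlap.

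**Figure D4:**
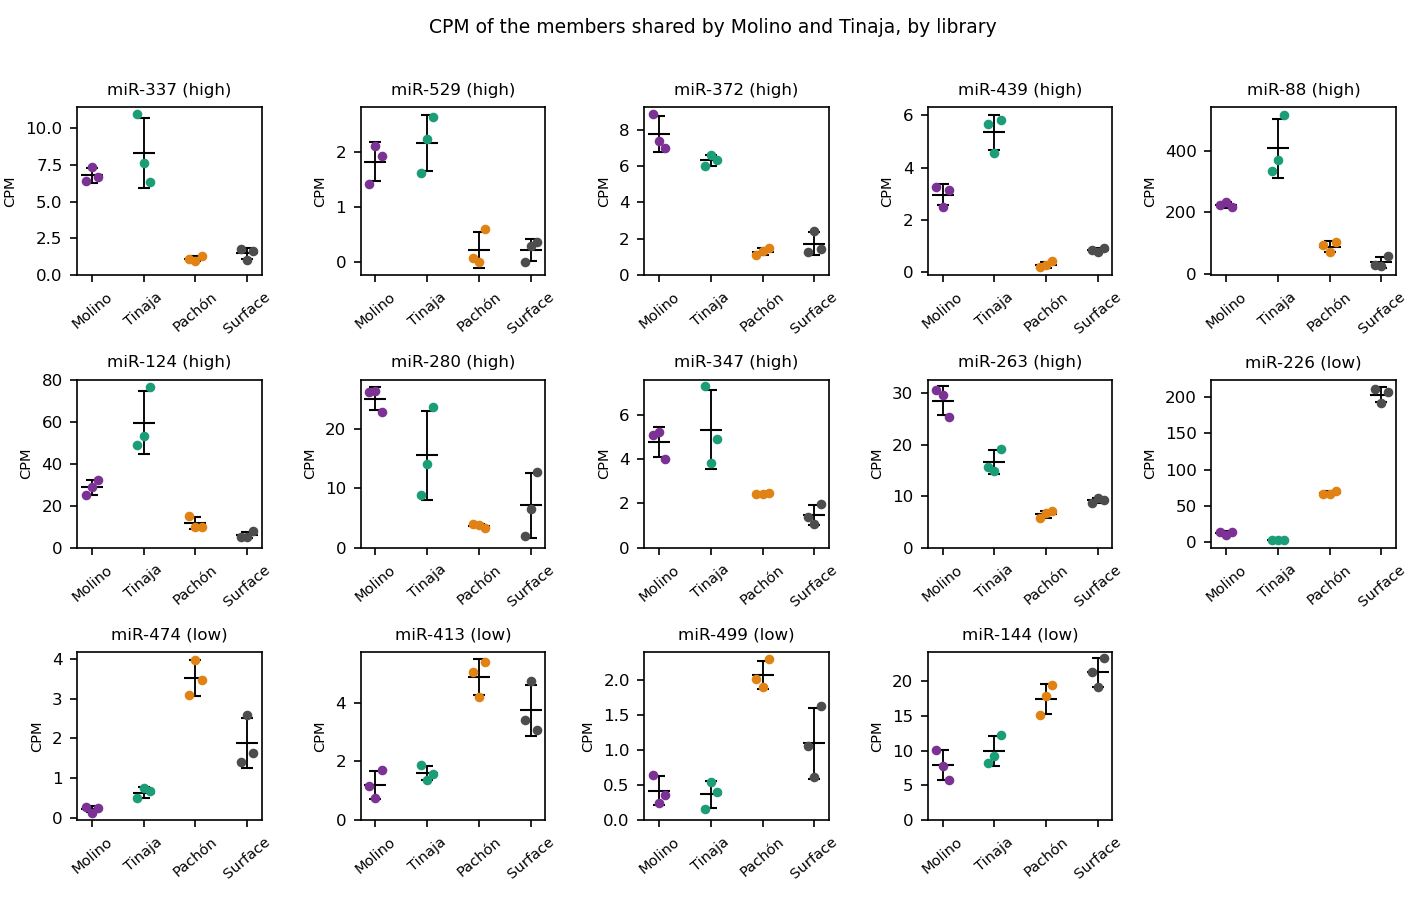
CPM of the 14 Molino and Tinaja miRNAs in each library, 1 panel for each miRNA with its own scale, points for libraries and bars for the mean ± SD of 3 libraries, and high or low for the Molino pair. miR-226 shows 4 separate heights, and in miR-280 the surface libraries spread over 1.99 to 12.8 CPM and reach into the Tinaja range.

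The counts of all 683 miRNAs were then tested in 1 fit with edgeR's quasi-likelihood test, and a miRNA was called when its Benjamini-Hochberg adjusted p was under 0.05 and its fold change 2 or more. Comparisons across the step repeat what chose the miRNAs and are given as a description. Of the 27, 23 were called in Molino against surface fish, where 34.8% of the 683 were called, 15 in Molino against Pachón, where 39.5% were, and 14 in Molino against Tinaja, where 42.8% were. Pachón against surface fish gave 13 calls beside 29.7% of the 683, Tinaja against surface fish 14 beside 28.7%, and Pachón against Tinaja 25 beside 24.9%. The comparisons share libraries and are not independent of each other. All 4 comparisons across its step were called for 9 of the 13 Molino and Pachón miRNAs, where 2.64% of the 683 were called in the same 4 in 1 direction, and for 10 of the 14 Molino and Tinaja miRNAs, where 2.2% were.

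Set against surface fish alone, both caves of the pair were called in the same direction in 10 of the 13 Molino and Pachón miRNAs, where 11.3% of the 683 were. The exceptions were miR-248, miR-242, and miR-191, whose folds between the pairs were 1.92 to 2.02. In 9 of the 10 Tinaja was not called against surface fish, and in miR-436 it was called in the opposite direction. Molino and Tinaja were both called in the same direction in 12 of 14, where 9.52% of the 683 were, the exceptions being miR-263 and miR-499. Pachón was not called against surface fish in 9 of those 12, was called in the same direction as the pair in miR-88 and miR-226, and was called in the opposite direction in miR-439. The choice bounded the difference between surface fish and the cave outside the pair, which lowers the number of such calls. The share of the 683 with the outside cave not called is not given, so nothing is read from these counts. A comparison that missed the threshold does not show that the levels were equal.

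The differences inside each pair were not fixed in sign by the choice, although it kept them smaller than the step on the scale of log2(mean CPM + 0.5). The fitted fold changes are on another scale and can be larger than the step. In miR-474, Molino against Tinaja gave -1.51 beside a step of 1.07, and in miR-439, Pachón against surface fish gave -1.55 beside 1.38. Since that bound lowers the number of calls, nothing is read from a share under that of the 683. Shares of the 683 that passed the adjusted p alone are not given, so nothing is read from the counts of miRNAs that did. Molino was called against Pachón in 2 of the 13 miRNAs, miR-488 and miR-477, where 39.5% of the 683 were called. miR-488 was higher in Molino by 1.52 on the log2 scale (SE 0.43), with an adjusted p of 0.00659 from edgeR's quasi-likelihood test and 3 of 3 Molino libraries above every Pachón library. miR-477, absent from the Molino libraries, had an adjusted p of 0.00026 by the same test. Both calls held in all 19 settings of the fit that tested them. Another 2 passed the adjusted p without reaching a fold of 2, miR-122, lower in Molino by 0.47 (SE 0.15, adjusted p = 0.0111, edgeR), and miR-191, higher in Molino by 0.23 (SE 0.083, adjusted p = 0.0239, edgeR).

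Tinaja was called against surface fish in 1 of the 13, where 28.7% of the 683 were. This was miR-436, higher in Tinaja by 1.16 on the log2 scale (SE 0.31, adjusted p = 0.00582, edgeR's quasi-likelihood test). miR-242 and miR-137 passed the adjusted p with smaller differences, miR-242 lower in Tinaja by 0.43 (SE 0.10, adjusted p = 0.0018, edgeR) and miR-137 lower in Tinaja by 0.78 (SE 0.25, adjusted p = 0.0158, edgeR). Without Tinaja 2, miR-137 was called as well, which made the count 2. Its Tinaja libraries were at 9.78 to 22.6 CPM, each below the lowest surface library at 27.7 CPM.

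Among the 14 Molino and Tinaja miRNAs, Molino was called against Tinaja in 2, where 42.8% of the 683 were. miR-226 was higher in Molino by 2.05 on the log2 scale (SE 0.14, adjusted p = 3.41e-09, edgeR's quasi-likelihood test), and the call held in all 20 settings. miR-474 was lower in Molino (log2 fold change -1.51, SE 0.58, adjusted p = 0.0315, edgeR), and this call was lost with DESeq2 and without Molino 1, Molino 2, Molino 3, or Tinaja 2, the adjusted p over all settings lying between 0.0241 and 0.106. Without Molino 1 or Molino 2 the count was thus 1. Another 5 passed the adjusted p alone. miR-439, miR-88, and miR-124 were lower in Molino, with log2 fold changes of -0.79, -0.79, and -0.97, and miR-263 and miR-280 were higher, with 0.84 and 0.80. miR-124 was called in 7 of 20 settings. The comparisons of Molino were not centred on 0: the median over the 683 miRNAs was 0.15 on the log2 scale against Tinaja, 0.18 against surface fish, and 0.10 against Pachón, and with library sizes alone 0.11, 0.13, and 0.07.

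Pachón was called against surface fish in 3 of the 14, where 29.7% of the 683 were. miR-226 was lower in Pachón (log2 fold change -1.56, SE 0.10, adjusted p = 1.51e-09, edgeR's quasi-likelihood test), miR-439 was lower (-1.55, SE 0.45, adjusted p = 0.0116, edgeR), and miR-88 was higher (1.27, SE 0.21, adjusted p = 8.7e-05, edgeR). In each of these miRNAs the 3 Pachón libraries lay clear of the 3 surface libraries. For miR-439 this rested on few counts, 10 in Pachón and 17 in surface fish in all. miR-124, miR-474, and miR-263 passed the adjusted p alone, miR-124 with a difference of 0.99 (SE 0.22), just short of a fold of 2. Without surface 3 the count was 5. An exact permutation test of 3 libraries against 3 cannot go below p = 0.1, so none was run for single miRNAs.

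**Figure D5:**
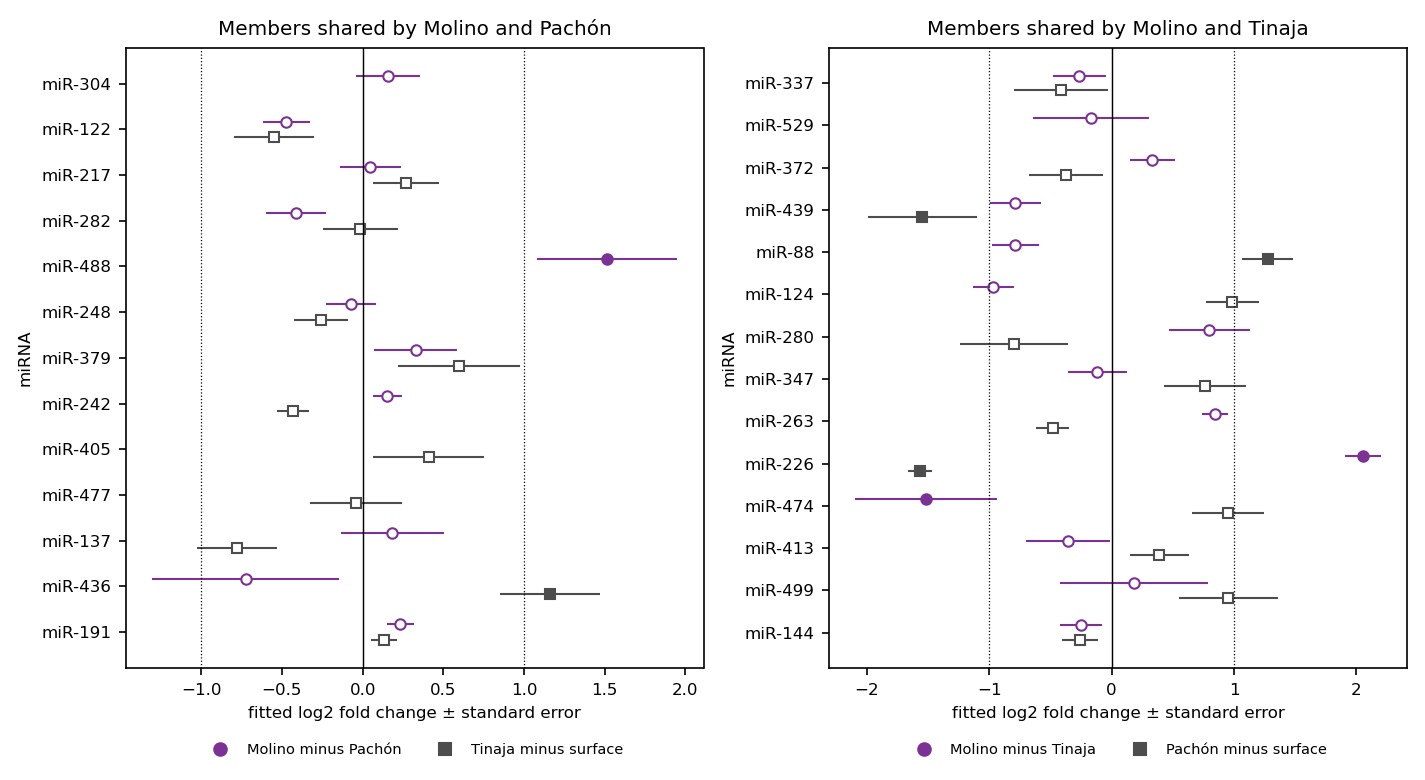
Fitted log2 fold change ± SE from edgeR between the morphs on the same side of the step, Molino minus its partner cave as circles and the other cave minus surface fish as squares, filled where called, with dotted lines at a fold of 2. The 5 comparisons in which a morph had no count or neither averaged more than 3 counts are not drawn, and the filled symbol farthest to the right is miR-226, at 2.05 for Molino minus Tinaja.

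The order of the morphs within the pairs was taken from the mean levels, whether or not a difference was called. Molino was more extreme than its partner in 13 of the 27, 7 with Pachón and 6 with Tinaja, and the partner was more extreme in 14, 6 Pachón and 8 Tinaja. The cave outside the pair lay on the pair's side of surface fish in 11, and on the far side of surface fish in 16. Of the comparisons inside the pairs, 8 were called and 46 were not, and 12 of those 46 changed direction in at least 1 alternative fit. Shares over the other miRNAs are not given, so nothing is read from these orders.

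Membership depended on single libraries for 13 of the 27. When each library was left out in turn, 24 to 30 miRNAs met the conditions, of which 23 to 27 were among these. The 14 that met them in all 12 omissions were miR-304, miR-122, miR-217, miR-282, miR-405, miR-137, and miR-436 with Pachón, and miR-337, miR-372, miR-439, miR-124, miR-347, miR-226, and miR-413 with Tinaja. miR-499 was lost in the most omissions, 5 of 12. miR-529 was lost without any of the Tinaja libraries, since its mean count then fell under 10. Without Tinaja 3, miR-529, miR-280, and miR-263 were lost and 6 miRNAs were gained, which gave 19 with Pachón and 11 with Tinaja.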

How the data were processed

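Small RNA libraries of *A. mexicanus* embryos were compared between 4 morphs, 3 libraries each, with the morph and the replicate number taken from the sample labels. The authors sequenced small RNA as single reads, trimmed adapters, removed reads of other small RNA classes, called miRNAs with miRDeep2 on the merged reads and the *A. mexicanus* 2.0 genome, and counted each mature miRNA. The submitters' processing notes name bcl2fastq 2.20 and cutadapt 2.5. The authors deposited raw counts, whole numbers for 683 miRNAs in 12 libraries, without normalization and without pooling of replicates. Each column was matched to its sample by name, and 0 columns were left unused.

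CPM was computed from the column totals. The members, the rule that chose them, and the miRNAs named were settled with earlier results of these data known. Every member is named; values of every library are given for the 5 with the largest step in each class, for the 2 most abundant with each partner cave, and for the 2 nearest the limit on each side. Members called within a pair are given with fold change and SE, except miR-477, which had no count in Molino and is given with a lower bound. The counts were fitted in R 4.3.3 with edgeR 4.0.16 (TMM factors, glmQLFit, and glmQLFTest), 683 miRNAs and 12 libraries in 1 fit with a mean for each morph and no filter on low counts, and p-values were adjusted by Benjamini-Hochberg within each comparison. A floor of 3 counts per library set the lower bounds of fold changes against morphs with no count, and intervals of pooled count ratios are exact. The SE is the log2 fold change divided by the root of the F statistic. The fit was tested on simulated data. Python 3.11.15 with pandas 2.3.3, numpy 2.4.6, and scipy 1.17.1 was used for the levels, and DESeq2 1.42.0 for an alternative.

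Alternatives were other scaling factors, pseudocounts of 0.1 and 2 CPM, the median of the libraries, other minimum counts and steps, counts thinned to the shallowest library, filters before the fit, a likelihood ratio test, the replicate number as a block, and each library left out. The mRNA data and target predictions were not used here.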

Additional observations from a re-analysis of the deposited data

How the results depend on the processing

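The 27 miRNAs became 28 with TMM or RLE factors in the rule, 31 and 21 with pseudocounts of 0.1 and 2 CPM, 27 with medians (21 of them shared), 34 with no minimum count, 26 after thinning (20 shared), 19 with a step of 1.0, and 14 with a minimum mean count of 50, of which 8 with Pachón and 6 with Tinaja. Leaving out 1 library gave 24 to 30 in all, 11 to 19 with Pachón and 11 to 16 with Tinaja. In all, 11 miRNAs stayed in every omission and under 6 of these alternatives, TMM, RLE, both pseudocounts, the median, and the thinning.

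Inside the pairs, none of the 8 called comparisons changed direction in any alternative fit, while 12 of the 46 not called did in at least 1. Without the fold rule the calls inside the pairs were 4 (Molino against Pachón), 3 (Tinaja against surface fish), 7 (Molino against Tinaja), and 6 (Pachón against surface fish). With at least 10 counts in every library, 311 miRNAs and 13 of the 27 were tested and the calls inside the pairs were 0, 0, 1, and 2. Over all 27 the calls were then 10 in Molino against surface fish, 6 in Molino against Pachón, 7 in Molino against Tinaja, 6 in Pachón against surface fish, 5 in Tinaja against surface fish, and 12 in Pachón against Tinaja, fewer by construction since miRNAs with a low morph were not tested. The shares called over the 311 are not given, so nothing about the members is read from these counts. Leaving out 1 library gave, inside the pairs, 2 to 2, 1 to 2, 1 to 3, and 3 to 5 calls, and over all 27, in the order just given, 23 to 24, 15 to 15, 13 to 15, 13 to 15, 12 to 15, and 25 to 26. RLE factors, library sizes alone, DESeq2, the likelihood ratio test, and filterByExpr kept each count within 1.5 times.

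The 18 correlations of same-numbered libraries lay between -0.18 and 0.15, 3 of them over 0.1. In 5 of the 18 the same number gave the highest correlation, among them all 3 between Pachón and Tinaja, at 0.14, 0.068, and 0.15. With 3 libraries per morph these values cannot settle whether the replicate numbers pair the samples. With the number as a replicate block the counts were 2, 1, 2, and 3 inside the pairs and 23, 15, 14, 13, 14, and 25 over all 27, and no call inside a pair changed. Depth limited the rarest miRNAs most, since in 9 of the 27 the low pair averaged fewer than 10 counts.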
